A study of Mus musculus with 6 samples.

Results

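The Hox genes encode homeodomain transcription factors and lie in 4 clusters, Hoxa to Hoxd, in which the genes carry paralogue numbers from 1 to 13. All genes of these clusters that had their own probe set on the array were described here, by symbol and irrespective of their single values. The family itself was chosen with earlier results of these data known. RefSeq (GRCm38.p6) lists 39 such mouse genes, and 33 of them, with 48 probe sets annotated to that symbol alone, were measured among 18193 genes and 45037 probe sets in all. They comprised 9 Hoxa, 9 Hoxb, 7 Hoxc and 8 Hoxd genes. Where a gene had several probe sets (11 genes), the one with the highest mean intensity stood for it. Hoxb8 and Hoxd4 were named only on probe sets shared with a neighbour.

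RNA came from the uterine horns of C57BL6J mice, with the cervix left out, and was hybridised to GeneChip Mouse Genome 430 2.0 arrays. Control mice carried SF1LsL/+, a conditional transgene for the nuclear receptor SF1 that Cre recombinase has to switch on, and SF1 mice carried Pgrcre/+ SF1LsL/+, the same transgene with Cre at the progesterone receptor (Pgr) locus. Each group had 3 arrays, each array held RNA pooled from 2 uteri, and tissue was taken 2 weeks after surgery. Which surgery this was, and the hormonal state and age of the mice, are not given in the sources used here. Cre acts in cells that use the Pgr locus and was present in the SF1 group alone, so that SF1, Cre and the dose of Pgr cannot be told apart. The question put to the Hox genes was whether their levels differed between SF1 and control uteri, and in which clusters and at which positions.

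Hox genes give cells their position along the body axis. Within each cluster, low-numbered genes at the 3' end act towards the head and high-numbered genes at the 5' end towards the tail, and genes with the same number in different clusters are close relatives that can stand in for each other. In the female reproductive tract the Hoxa genes of the 5' end are laid out along the Müllerian duct, with Hoxa9 in the oviduct, Hoxa10 and Hoxa11 in the uterus and Hoxa13 in the cervix and upper vagina. Hoxa10 and Hoxa11 stay active in the adult endometrium, respond to ovarian steroids, and are needed in the stroma for implantation and decidualization.

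Median intensities lay between 149.9 and 162.2 in the 6 arrays, and the mean correlation of log2 values was 0.9888 to 0.9925 within a group and 0.9672 to 0.9761 with the other group. RNA quality, as the 3'-to-5' signal ratio of beta-actin, came to 2.58, 2.56 and 2.38 in the control arrays and 2.34, 2.13 and 2.12 in the SF1 arrays. The groups did not overlap in this ratio. The same ratio of Gapdh came to 1.697, 1.649 and 1.527 in control and 1.66, 1.494 and 1.469 in SF1, with overlap, and the part of RNA quality in the Hox results was not tested. Neither probe set of Nr5a1, the mouse gene of SF1, was called (log2 differences of 0.00 and 0.08, limma adjusted p = 0.992 and 0.535). It is unknown whether these read RNA of the transgene, and they are no check of the labels. Pgr fell from 4899, 4747 and 4744 intensity units in the control arrays to 1932, 1719 and 2027 in the SF1 arrays (log2 difference -1.34, limma adjusted p = 3.23e-05). Differences are throughout SF1 minus control on the scale log2(intensity + 16), on which the change of a dim probe set is understated.

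Hoxa and Hoxd genes of numbers 9 to 11 were lower in SF1 uteri, and those measured of numbers 12 and 13 were not called. Hoxa9, Hoxa10, Hoxa11, Hoxd9, Hoxd10 and Hoxd11 fell to between 46.8% and 60.1% of their control means, and Hoxa2 and Hoxa3, from the other end of the Hoxa cluster, fell by less. In all, 8 of 33 Hox genes were called lower at a limma adjusted p under 0.05 and 0 were called higher (13 lower and 2 higher at an unadjusted p under 0.05). Over all 18193 genes, 8.11% were called lower and 8.45% higher. At an unadjusted p under 0.05 (limma), 3344 of these 18193 genes were lower and 2496 higher. The Hox counts were not tested against these background counts. A call in the lower direction with a fold of at least 1.5 was reached by 6 Hox genes and by 2.74% of all genes. In whole-tissue RNA, fewer cells that use a gene and less RNA per cell cannot be told apart. Of all calls, 51.0% were in the higher direction, a share that was 63.0% after median centring of the arrays.

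Counting probe sets in place of genes gave the same direction. Of the 48 Hox probe sets, 12 were called lower and 0 higher, where 8.08% of all probe sets were called lower. Every SF1 array read below every control array for 12 Hox genes and above every control array for 2, against 23.7% and 16.3% of all genes. The median log2 difference was -0.16 over the 33 Hox genes and -0.05 over all genes. Of the Hox differences, 24 of 33 were below 0 (22 after median centring), as were 11024 of 18193 over all genes.

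The value table holds no detection calls, so the signal of 43 probe sets for olfactory receptor genes, which the uterus is not known to use, served as a background: its 95th percentile was 189.8 intensity units. By their mean over the 6 arrays, 16 Hox genes lay above it. They were Hoxa3, Hoxa5, Hoxa9, Hoxa10 and Hoxa11, Hoxb2 to Hoxb6, Hoxc4 and Hoxc9, and Hoxd3, Hoxd8, Hoxd9 and Hoxd10. Of these, 6 were called lower and 0 higher (8 lower and 2 higher at an unadjusted p under 0.05), against 10.5% and 10.4% of all genes above the background. Hoxa2 and Hoxd11 were called lower from signals that were not above it on average.

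The upstream sequences of the posterior genes that fell together are shown because SF1 and the progesterone receptor are DNA-binding receptors. Cre for the SF1 transgene and the dose of Pgr differ between the groups by design. Receptor protein and binding were not measured. RefSeq (GRCm38.p6) windows from 250 bases before to 50 after a transcript start were held for 19 of the 33 Hox genes (21 windows), including the 6 posterior Hoxa and Hoxd genes named above (8 windows). The letters CAAGGTCA and CAAGGCCA, both of the SF1 type, the nuclear receptor half-site AGGTCA, which is contained in the first of these, and the progesterone receptor half-site TGTTCT were searched on both strands. Of the 8 windows, 3 held a match within the bases before the start, and these are printed 5' to 3' along the gene's strand with each match in capitals. They are Hoxa9 at chr6:52227371-52227620 (minus strand), Hoxa11 at chr6:52245811-52246060 (minus strand) and Hoxd10 at chr2:74691641-74691890 (plus strand).
Hoxa9: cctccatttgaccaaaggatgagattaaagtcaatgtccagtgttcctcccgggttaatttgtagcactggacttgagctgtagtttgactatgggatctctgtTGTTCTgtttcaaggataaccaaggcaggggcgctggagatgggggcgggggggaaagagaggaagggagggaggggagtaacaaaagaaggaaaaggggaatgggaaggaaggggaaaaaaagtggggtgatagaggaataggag
Hoxa11: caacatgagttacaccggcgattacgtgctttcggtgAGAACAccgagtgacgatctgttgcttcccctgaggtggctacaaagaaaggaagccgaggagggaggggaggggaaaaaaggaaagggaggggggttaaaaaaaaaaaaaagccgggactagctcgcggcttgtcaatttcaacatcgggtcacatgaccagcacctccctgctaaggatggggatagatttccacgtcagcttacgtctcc
Hoxd10: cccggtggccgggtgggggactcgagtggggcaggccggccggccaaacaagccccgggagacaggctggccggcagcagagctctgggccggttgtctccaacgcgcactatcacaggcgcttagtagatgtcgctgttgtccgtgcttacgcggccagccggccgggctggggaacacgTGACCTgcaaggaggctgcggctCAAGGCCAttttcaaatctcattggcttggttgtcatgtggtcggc
TGTTCT stood in the Hoxa9 window, 146 bases before the start, and on the opposite strand in the Hoxa11 window, 213 bases before the start. The Hoxd10 window held CAAGGCCA 46 bases and AGGTCA, on the opposite strand, 69 bases before the start.

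Letters such as these are found in many promoters. Over all 32851 windows of the RefSeq table, CAAGGTCA was found in 1.56%, CAAGGCCA in 2.4%, AGGTCA in 16.3% and TGTTCT in 19.0%, and over the 21 Hox windows in 0, 1, 6 and 2. The windows with AGGTCA belonged to Hoxd10, Hoxd8, Hoxd3, Hoxa5, Hoxb4 and Hoxc4, of which Hoxd10 alone was called. The full progesterone receptor element stood in 0.475% of all windows and in 0 of the Hox windows. The windows of Hoxa10, Hoxd9 and Hoxd11 held none of the motifs before the start. A match is a description of letters, not a binding site, and its absence holds for these windows only. The 250 bases before the start held a median of 13 CpG dinucleotides and 55.6% G and C in the 8 windows of the 6 genes, and 6 CpG and 52.4% over all windows.

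Hoxa9, which marks the oviduct in the developing duct, read 2648, 2922 and 2632 intensity units in the control arrays, in the order of their replicate numbers, and 1564, 1601 and 1685 in the SF1 arrays. The groups were far apart: control averaged 2734 ± 163 and SF1 1617 ± 62.0 (SD, n = 3). The log2 difference was -0.75 ± 0.08 (SE, n = 3 arrays per group, limma adjusted p = 0.000469), and the other Hoxa9 probe set gave -0.66 (adjusted p = 0.00462).

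Hoxa10, the regulator of stromal proliferation and decidualization, read 2668, 2372 and 2528 in control and 1433, 1586 and 1532 in SF1. The highest SF1 array was well under the lowest control array. Its log2 difference was -0.73 ± 0.08 (SE; limma adjusted p = 0.000654), and its dimmer second probe set fell by 0.97 (adjusted p = 0.00173). Hoxa11, needed for uterine stroma, glands and implantation, read 1059, 1527 and 1028 in control and 538.2, 567.5 and 587.5 in SF1. Control replicate 2 stood above the other control arrays, and the SF1 arrays lay close together, below all of them. This was the largest Hox difference, -1.05 ± 0.14 (SE; adjusted p = 0.0019), and without control replicate 2 it was -0.87.

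Hoxa13, the gene of the cervix and upper vagina, read 76.1, 70.0 and 70.5 in control and 59.6, 90.6 and 75.1 in SF1. All 6 values lay under the background signal, and the groups overlapped. The difference was 0.03 (95% interval -0.25 to 0.31; limma adjusted p = 0.877), and at this signal neither a level nor a change could be read.

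**Figure D1:**
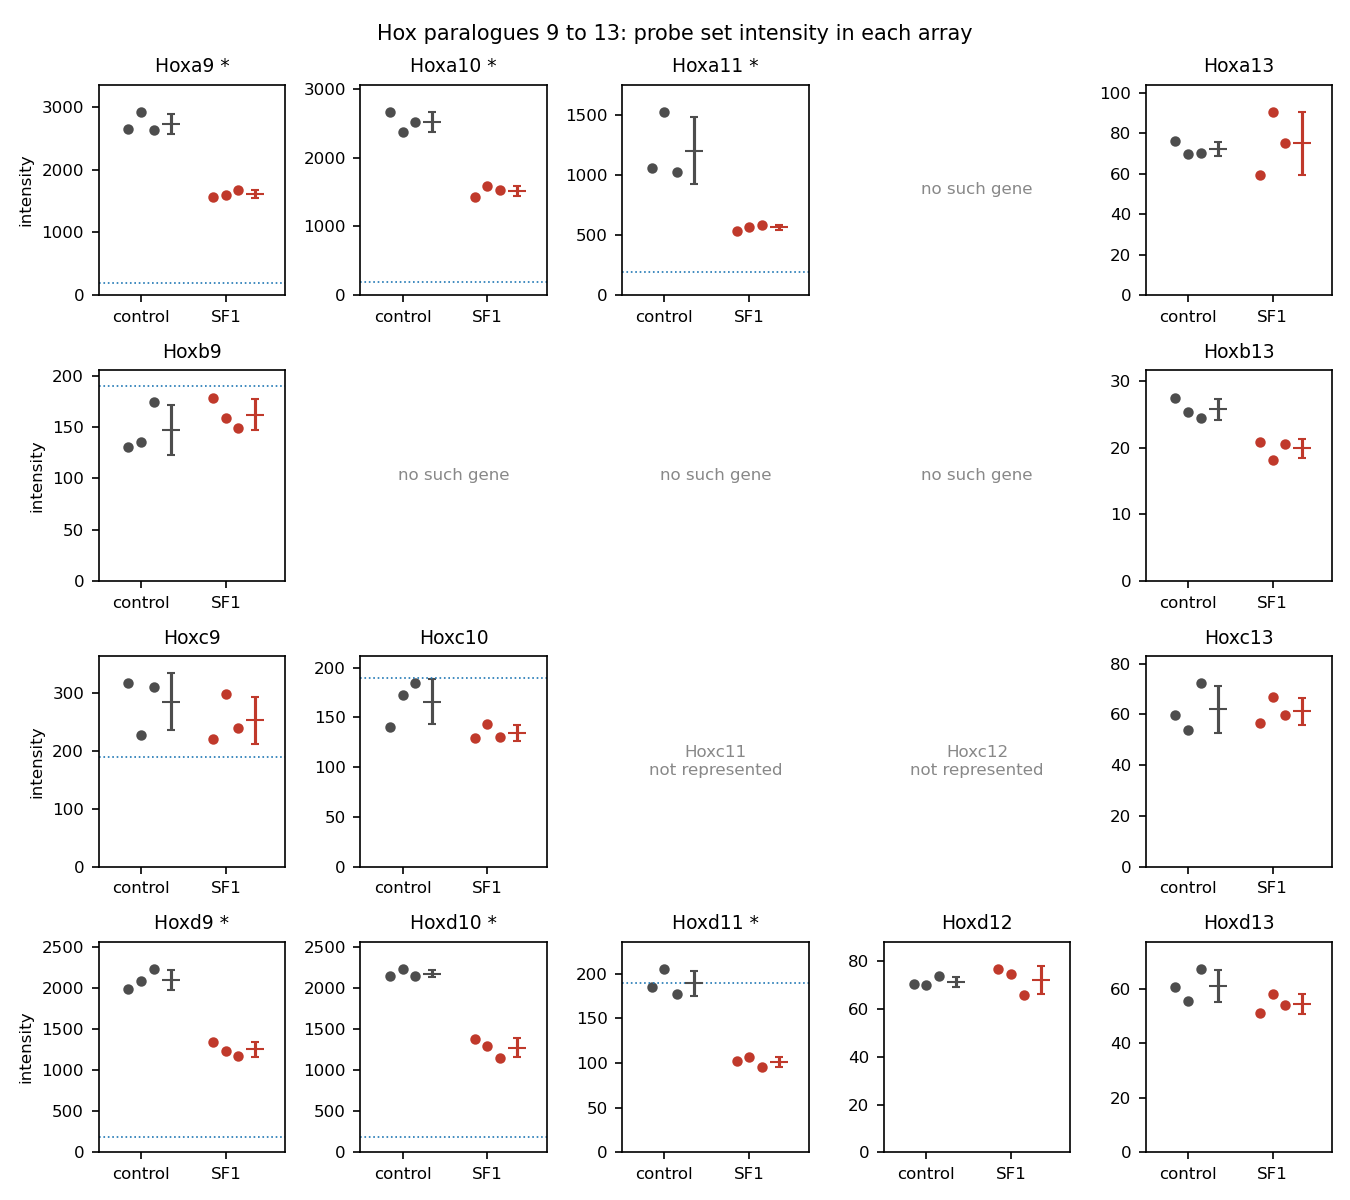
Intensity (arbitrary units, linear axis from 0, a scale of its own in each panel) of the 14 measured Hox genes with paralogue numbers 9 to 13 in the 3 control and 3 SF1 arrays, with group mean and SD. A star marks genes called at a limma adjusted p under 0.05 and the dotted line the background signal of 189.8; Hoxa9 to Hoxa11 and Hoxd9 to Hoxd11 show separate groups, whereas the SF1 values of Hoxa13, Hoxc9 and Hoxd12 overlap with control.

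The Hoxd cluster showed the same stretch of numbers. Hoxd9, Hoxd10 and Hoxd11 are best known for shaping the bones of the limb and are also used in the urogenital tract. Hoxd9 read 1987, 2090 and 2228 in control and 1346, 1235 and 1175 in SF1, and the lowest control array was well above the highest SF1 array. Its log2 difference was -0.74 ± 0.09 (SE; limma adjusted p = 0.00075). Hoxd10 read 2155, 2234 and 2153 in control and 1380, 1295 and 1153 in SF1, so that the control arrays were nearly equal and all SF1 arrays lower (-0.77 ± 0.09, SE; adjusted p = 0.000651).

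Hoxd11 was dimmer, at 185.4, 205.0 and 177.3 in control and 102.4, 106.6 and 95.6 in SF1. Its control arrays lay near the background signal and its SF1 arrays below it. The groups were nonetheless separate, with a log2 difference of -0.80 ± 0.08 (SE; limma adjusted p = 0.000432). Beyond it, Hoxd12 (0.01, adjusted p = 0.93) and Hoxd13 (-0.13, adjusted p = 0.353), genes of the digits and external genitalia, read between 51.1 and 76.6 in all arrays, under the background signal, and were not called.

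Hoxd8, next to Hoxd9, sat at the edge of the threshold. It read 1112, 1040 and 1185 in control and 979.3, 872.0 and 817.6 in SF1, and the groups did not overlap. The log2 difference was -0.32 (95% interval -0.53 to -0.10) at a limma adjusted p of 0.0569, whereas its other probe set, -0.37, was called at 0.0277. Hoxd3, of the neck and axial skeleton, was not called (-0.07, adjusted p = 0.751), nor was Hoxd1 (0.01, adjusted p = 0.974), which read between 18.1 and 22.5 in all arrays. A probe set shared by Hoxd4 and Hoxd3 fell from a mean of 990.6 to 622.1 (-0.65, adjusted p = 0.00644), and the other shared probe set of this pair did not pass (-0.17, adjusted p = 0.375). Which of the 2 genes such a probe set reads cannot be told.

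At the 3' end of the Hoxa cluster 2 genes were called with smaller differences. Hoxa3, a gene of the pharyngeal region that forms thymus and parathyroid, read 300.6, 371.7 and 310.1 in control and 207.2, 225.1 and 244.9 in SF1. The groups were separate (log2 difference -0.50 ± 0.10, SE; limma adjusted p = 0.0138). Without SF1 replicate 1 the adjusted p was 0.0568. Of its 4 probe sets 2 were called lower, the dimmer of them at a mean of 64.4, far under the background signal. The other Hoxa3 probe set above the background was not called (-0.25, adjusted p = 0.202). The representing probe set is of a type that may also read related sequences, per its name suffix.

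Hoxa2, a gene of hindbrain and pharyngeal arch patterning, read 73.3, 75.7 and 71.5 in control and 59.5, 53.7 and 54.6 in SF1. The groups were separate but every array was far under the background signal. Its difference of -0.32 ± 0.08 (SE; adjusted p = 0.026) lost its call in 8 of 13 alternatives, among them each left-out control array, with a highest adjusted p of 0.0826.

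The other 4 Hoxa genes were not called. Hoxa5, a gene of lung development, gave -0.24 (limma adjusted p = 0.359) with control arrays at 472.5, 311.8 and 524.3 and SF1 arrays at 356.4, 368.5 and 347.6. Control replicate 2 lay below all SF1 arrays while the other control arrays lay above them, and without it Hoxa5 was called (adjusted p = 0.0137). Hoxa4 (-0.23, adjusted p = 0.22) and Hoxa7 (0.01, adjusted p = 0.956) were under the background signal.

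In the Hoxb cluster 0 of 9 genes were called by limma, where 8.11% of all genes were called lower and 8.45% higher. At an unadjusted p under 0.05, 2 were lower and 2 higher. The Hoxb genes above the background are known from hindbrain, spinal cord and blood cell precursors. Hoxb6 read 776.6, 560.2 and 743.8 in control and 1146, 839.8 and 940.9 in SF1, higher in 3 of 3 SF1 arrays than in any control array. The log2 difference of 0.49 had a 95% interval from 0.14 to 0.83, but its adjusted p of 0.0659 missed the threshold. Hoxb2 read 566.0, 561.8 and 556.6 in control and 704.7, 663.9 and 617.0 in SF1, again without overlap (0.23, adjusted p = 0.0922).

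Hoxb5 differed by 0.18 (limma adjusted p = 0.302), Hoxb4 by -0.01 (0.962) and Hoxb3 by -0.16 (0.269), all with overlapping groups. Hoxb7 (0.12, adjusted p = 0.55) and Hoxb9 (0.13, 0.473) lay under the background signal. So did Hoxb1 (-0.25, adjusted p = 0.0705) and Hoxb13 (-0.22, 0.095), the latter a gene of prostate and hindgut, both with groups that did not overlap. The probe set shared by Hoxb8 and Hoxb7 gave 0.16 (adjusted p = 0.402), with control arrays between 1119 and 1179 and SF1 arrays between 1116 and 1556.

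In the Hoxc cluster 0 of 7 genes were called by limma, where 8.11% of all genes were called lower and 8.45% higher. At an unadjusted p under 0.05, 2 were lower and 0 higher. Of the differences, 7 of 7 were below 0 (6 of 7 after median centring or quantile normalization), where 11024 of 18193 were over all genes. Hoxc4 read 311.6, 384.7 and 327.0 in control and 271.5, 279.2 and 295.7 in SF1. The groups did not overlap, and the difference of -0.26 (95% interval -0.47 to -0.04) had an adjusted p of 0.112. Hoxc9, the one Hoxc gene of the posterior numbers above the background, read 316.8, 228.2 and 311.3 in control and 220.1, 298.2 and 240.5 in SF1. Its groups overlapped (-0.16, 95% interval -0.50 to 0.18; adjusted p = 0.495).

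Hoxc10, a posterior gene of the lumbar spinal cord and hindlimb, differed by -0.27 (95% interval -0.51 to -0.03; limma adjusted p = 0.132) at a mean of 149.9, under the background signal. Hoxc5 (-0.14, adjusted p = 0.506), Hoxc6 (-0.11, 0.515), Hoxc8 (-0.15, 0.501) and Hoxc13 (-0.01, 0.96), the last a gene of hair and nail, were also under it.

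**Figure D2:**
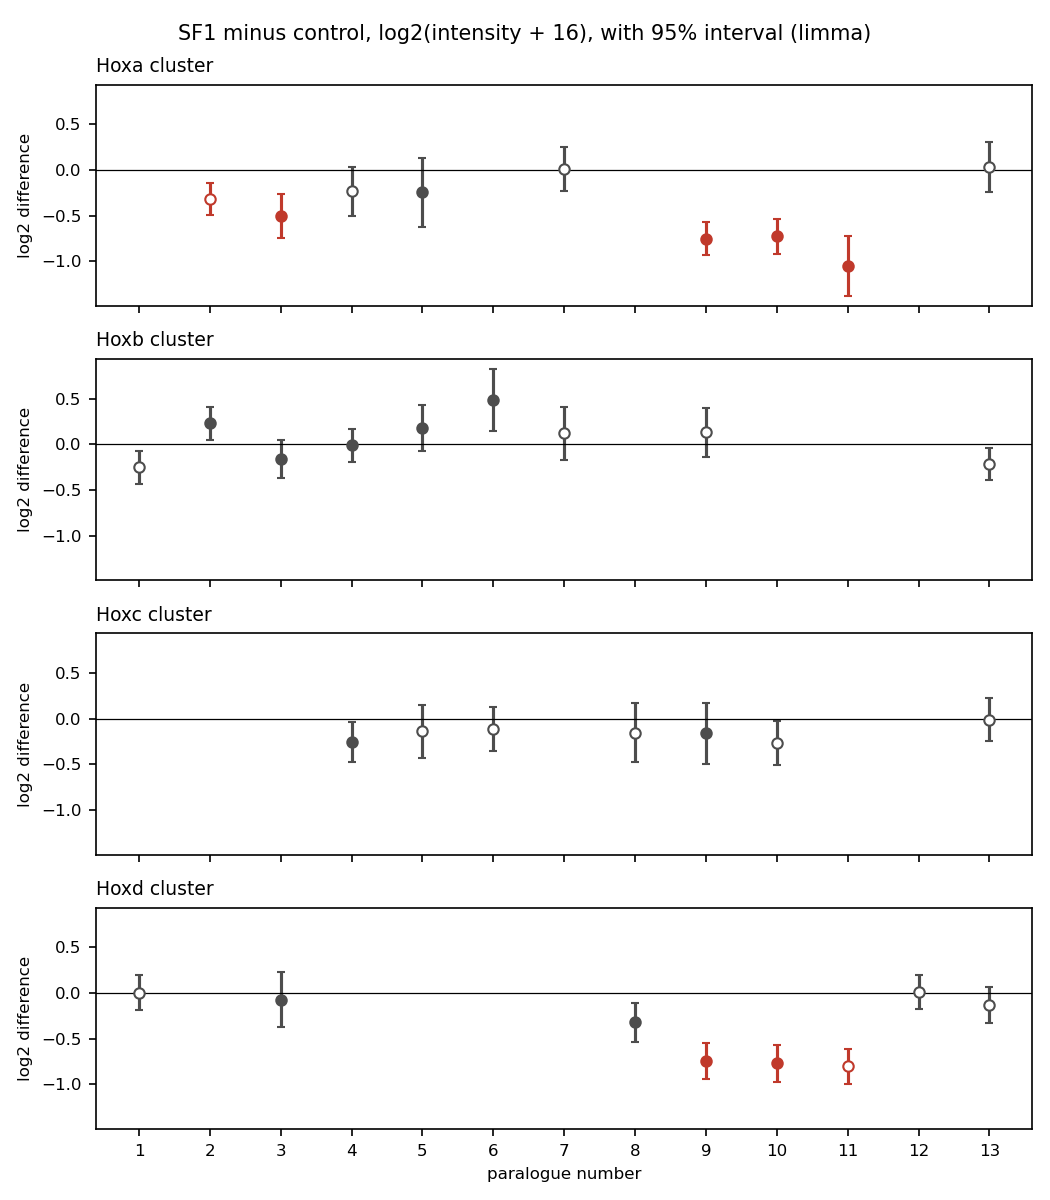
Log2 difference (SF1 minus control, log2(intensity + 16)) of the 33 Hox genes with 95% intervals from limma, by cluster (panels) and paralogue number (horizontal axis). Red points passed a limma adjusted p under 0.05 and open points had a mean signal under the background; the 6 genes Hoxa9 to Hoxa11 and Hoxd9 to Hoxd11 lie between -0.73 and -1.05, and none of the Hoxb and Hoxc genes is red.

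Set by position, 6 of 6 measured Hoxa and Hoxd genes of numbers 9 to 11 were called lower, with log2 differences from -0.73 to -1.05. Of the 3 measured Hoxa and Hoxd genes of numbers 12 and 13, 0 were called (0 at an unadjusted p under 0.05, limma), all of them under the background signal. Among Hoxb and Hoxc genes, 0 of 3 of numbers 9 to 11 were called (1 lower at an unadjusted p under 0.05). Of these, Hoxc9 alone was above the background signal. Over all numbers, 0 of 16 Hoxb and Hoxc genes were called, with 7 above the background. At an unadjusted p under 0.05, 4 of the 16 were lower and 2 higher, where 3344 and 2496 of all 18193 genes were. For calls at the adjusted p, the shares over all genes were 8.11% lower and 8.45% higher, so that 0 calls in sets this small are near them. By number over all 4 clusters, 2 of 7 genes were called lower for numbers 1 to 3, 0 of 12 for 4 to 8 (2 lower and 1 higher at an unadjusted p under 0.05) and 6 of 14 for 9 to 13. This grouping was made after the values were seen, and the difference between clusters or between stretches of numbers was not tested. Median log2 differences were -0.32 for Hoxa, 0.12 for Hoxb, -0.15 for Hoxc and -0.22 for Hoxd, with the same signs after median centring (Hoxc -0.10) and quantile normalization (Hoxc -0.10). The Hoxb and Hoxc medians were small and moved by over 1.5 times with single arrays. Hoxb stood at 0.06 without control replicate 1, 0.04 without control replicate 2, 0.07 without SF1 replicate 1, 0.02 without SF1 replicate 2, 0.19 without SF1 replicate 3 and 0.06 with a pseudocount of 64. Hoxc stood at -0.09 without control replicate 3 and -0.25 without SF1 replicate 2. Over the brighter probe sets alone, Hoxa (6 genes) stood at -0.62 and Hoxd (4 genes) at -0.53.

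The 6 genes did not share 1 order among the SF1 arrays. As the median percent of their control means, Hoxa9, Hoxa10 and Hoxa11 stood at 56.8, 58.6 and 60.7 in SF1 replicates 1 to 3, and each of them was lowest in SF1 replicate 1. Hoxd9, Hoxd10 and Hoxd11 stood at 63.3, 58.8 and 52.9, and each was lowest in SF1 replicate 3. The Hoxb genes stood at 115.5, 103.7 and 100.2 and the Hoxc genes at 79.6, 98.2 and 84.3. With 3 arrays per group these orders are a description.

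**Figure D3:**
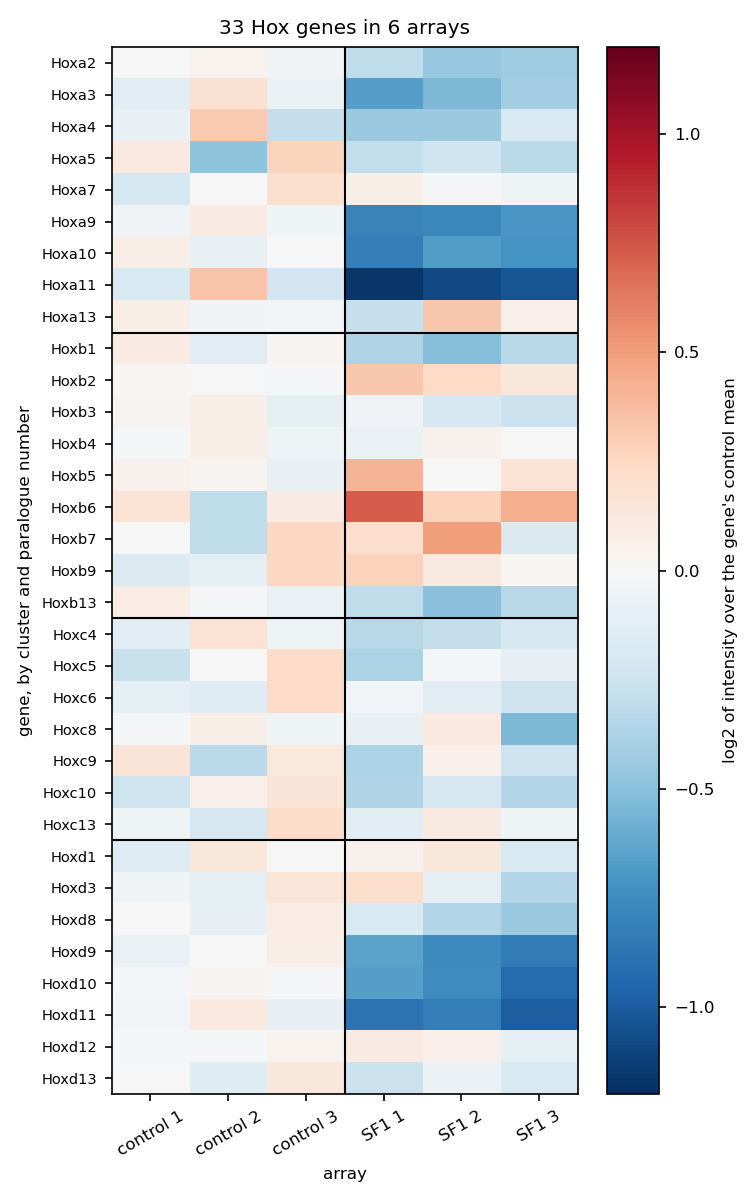
Log2 of each array's intensity over the gene's own control mean for the 33 Hox genes (rows, by cluster and number) in the 3 control and 3 SF1 arrays (columns); blue is below and red above the control mean. Hoxa9 to Hoxa11 and Hoxd9 to Hoxd11 form 2 blue blocks in all 3 SF1 arrays, and Hoxb2 and Hoxb6 are red in all 3.

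Of the measured noncoding RNAs of the clusters, 2 were called lower and 0 higher, where 8.11% of all genes were called lower. Hoxa11os, the antisense RNA of Hoxa11, read 587.4, 666.2 and 630.8 in control and 353.6, 350.3 and 427.5 in SF1. All SF1 arrays were lower (-0.72, limma adjusted p = 0.00199), but its other, very dim probe set was not (0.08, adjusted p = 0.673), and the mean of both gave an adjusted p of 0.056. Hoxd3os1, from the opposite strand at Hoxd3, fell on both of its probe sets (-0.74, adjusted p = 0.00149, and -0.41, adjusted p = 0.0321). Hoxd3 itself was not called on its own probe set (-0.07, adjusted p = 0.751), and its probe sets shared with Hoxd4 are given above. Hoxb5os did not pass (-0.09, adjusted p = 0.513). These 3 noncoding RNAs were the measured ones of 19 listed, and whether a probe set reads both partners of an antisense pair was not tested.

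Protein-coding genes flanking the clusters did not share 1 direction. Of 24 measured, 2 were called lower and 6 higher (4 lower and 6 higher at an unadjusted p under 0.05, limma). Over all genes, 8.11% were called lower and 8.45% higher. The median log2 difference was 0.04 for the flanking genes against -0.05 over all genes. The homeobox genes directly beside Hoxa13 and Hoxd13, Evx1 (limma adjusted p = 0.395) and Evx2 (0.457), were not called. Both had a mean under the background signal (61.6 and 172.8), which limits what can be read from them. Lnpk, 1 coding gene away from the Hoxd genes and known to share their limb enhancers, read 298.4, 322.4 and 285.8 in control and 208.0, 209.2 and 206.6 in SF1. It fell by 0.51 (adjusted p = 0.00329), and 2 of its 3 probe sets were called lower. Mtx2, directly at the other side of that cluster and a mitochondrial import gene, rose by 0.38 (adjusted p = 0.0153), a call lost in 3 of the fits without 1 array. Jazf1, 3 coding genes from the Hoxa genes, fell by 0.54 (adjusted p = 0.00309) at a mean of 147.5, under the background signal.

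Ttll6, a tubulin polyglutamylase gene of cilia directly beside the Hoxb genes, had the largest difference of the flanking list, from 122.9, 137.7 and 141.2 in control to 387.2, 295.1 and 442.0 in SF1. Every SF1 array read above every control array (1.37, limma adjusted p = 0.00034). Atp5g1, 2 coding genes from the Hoxb cluster and an ATP synthase subunit gene, was called higher (0.44, adjusted p = 0.0156), but not without control replicate 1, without SF1 replicate 2 or as the mean of its probe sets (highest adjusted p = 0.375).

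Of the TALE homeodomain proteins, the Pbx, Meis and Pknox cofactors with which Hox proteins bind DNA, 0 of 8 measured genes were called (1 lower and 0 higher at an unadjusted p under 0.05, limma; median -0.10). Meis2 came nearest, at 2697, 2951 and 2992 in control and 2187, 2124 and 2560 in SF1 (-0.33, adjusted p = 0.0526), and Meis1 was not called (0.03, 95% interval -0.28 to 0.33; adjusted p = 0.916). Of 24 Polycomb, Trithorax and other regulators of Hox clusters, 2 were called lower and 0 higher (median -0.13), a share near the 8.11% of all genes called lower. At an unadjusted p under 0.05 (limma), 10 were lower and 1 higher, where 3344 and 2496 of all 18193 genes were. Every SF1 array read below every control array for 10 of the 24 and above for 0, against 23.7% and 16.3% of all genes. Cbx2, a Polycomb reader of H3K27 methylation, fell by 0.53 (adjusted p = 0.0117), though its other probe set gave -0.03 (0.808). Kdm6b, a demethylase of the same mark, fell by 0.52 (adjusted p = 0.0267) and lost its call in 5 of the 6 fits without 1 array. The Polycomb enzyme Ezh2 (adjusted p = 0.542) and the Trithorax enzyme Kmt2a (0.0774) were not called.

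Of 19 other patterning genes of the Müllerian duct, 8 were called lower and 2 higher (10 and 3 at an unadjusted p under 0.05, limma; median -0.19), where 8.11% of all genes were called lower and 8.45% higher. Wnt7a, an epithelial signal that keeps Hoxa10 and Hoxa11 on in the uterus, fell by 1.50 (limma adjusted p = 1.63e-05), with its other 2 probe sets not called. Msx1 (-1.48, adjusted p = 2.09e-05) and the secreted Wnt modulator gene Sfrp2 (-1.21, 0.000153) fell, and Sfrp1 (1.30, 0.000758) and Wnt4 (0.84, 0.000788) rose. Among 20 genes linked to Hoxa10 or Hoxa11 in uterus, 7 were called lower and 2 higher (10 and 2 at an unadjusted p under 0.05; median -0.18). These links are background knowledge, and the list holds Pgr itself. This list and the list of duct genes were chosen with earlier results of these data known. Their counts are a description, not independent support. Besides Pgr, Gdf10 (-1.18, adjusted p = 7.35e-05) and Bmp2 (-1.16, 0.000114) fell most. The cell cycle inhibitor gene Cdkn1a, held to be a Hoxa10 target, rose by 0.55 (adjusted p = 0.00797). Ccnd3 was called at 0.31 (adjusted p = 0.0489), a call that was lost in 5 of the 6 fits without 1 array, and its other 2 probe sets were not called. Emx2, which Hoxa10 is known to repress, read lower and not higher in SF1 but did not pass (-0.27, limma unadjusted p = 0.0248, adjusted p = 0.109). It read 1494, 1637 and 1492 in control and 1377, 1128 and 1344 in SF1, and the groups did not overlap.

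**Figure D4:**
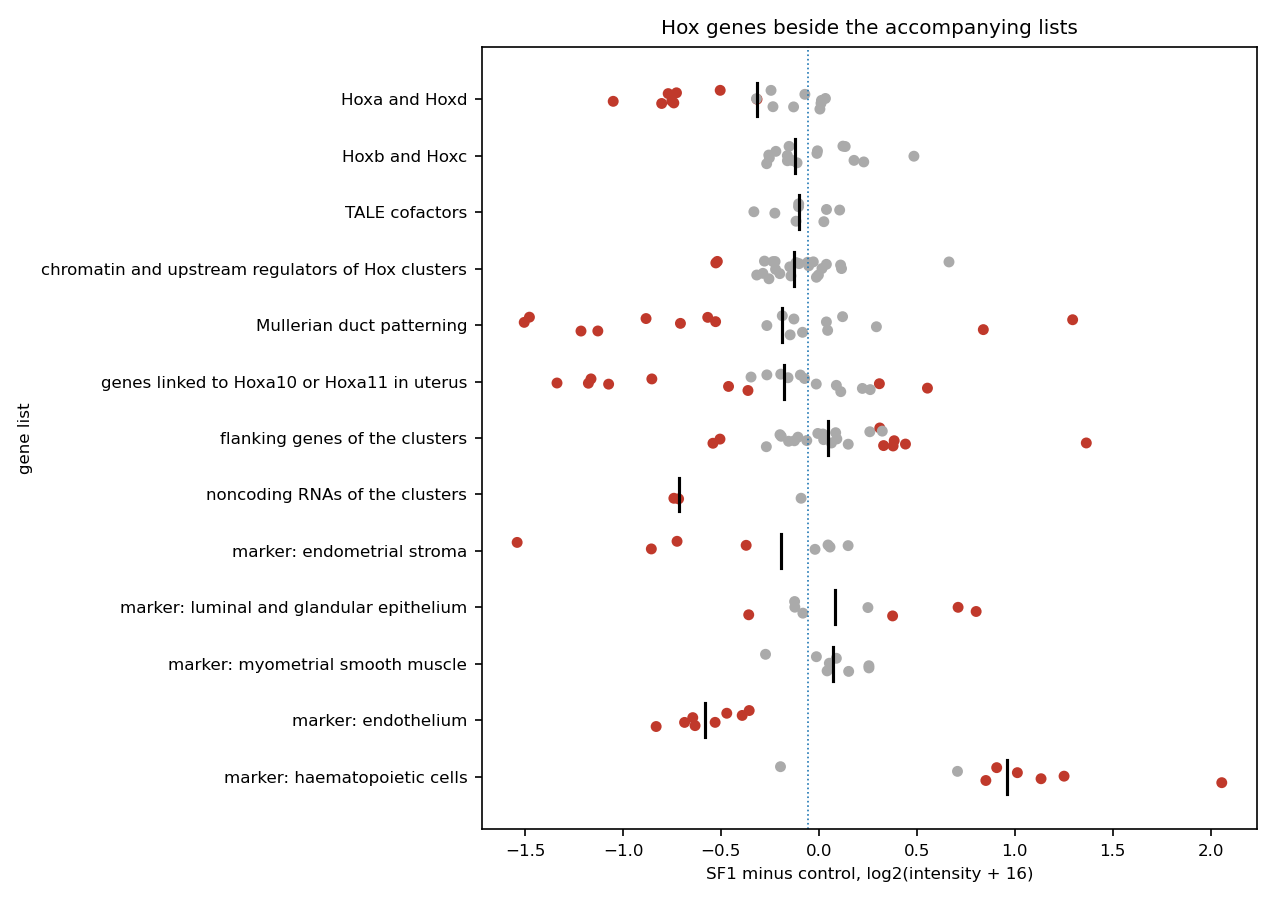
Log2 difference (SF1 minus control) of single genes, as points, in the Hox clusters, the accompanying lists and 5 of the cell type marker lists (vertical axis); red points passed a limma adjusted p under 0.05, black bars are list medians and the dotted line is the median of all genes (-0.05). The red Hox points are all in the row of Hoxa and Hoxd genes and all below 0.

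Some markers of uterine cell types were called as well, and others were not. For comparison with the marker lists here and below, 8.11% of all genes were called lower and 8.45% higher. The marker lists too were chosen with earlier results of these data known, so their counts are a description. Of 8 endometrial stroma markers, 4 were lower and 0 higher: Twist2 (-1.54, limma adjusted p = 1.49e-05), Thy1 (-0.86, 0.000342) and Pdgfra (-0.72, 0.000369) fell, as did Dcn, whereas Vim (adjusted p = 0.892), Lum (0.663), Col1a1 (0.905) and Col3a1 (0.518) were not called. The summed stroma signal lay between 49478 and 52491 in control and between 42481 and 46163 in SF1. All 8 endothelial markers were lower (sums 6493 to 6899 and 4074 to 4475), with Cdh5 (-0.83, adjusted p = 0.003), Cldn5 and Egfl7 at the low end. Smooth muscle markers showed 0 of 8 calls (1 lower and 1 higher at an unadjusted p under 0.05), with sums from 28744 to 31548 and from 31183 to 33547.

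Epithelial markers gave 1 lower and 3 higher of 8 (sums 16843 to 17859 and 18918 to 20370), with Foxa2 (0.80, limma adjusted p = 0.00219) and Cdh1 (0.71, 0.00361) rising, Epcam called at 0.38 (lost without SF1 replicate 1 and as the mean of its probe sets) and Krt19 at -0.36 (lost in 4 of the fits without 1 array). Haematopoietic markers gave 6 of 8 higher and 0 lower (7 and 0 at an unadjusted p under 0.05; sums 5388 to 8657 and 11524 to 17796), led by Cd3g (2.06, adjusted p = 0.000142). Of 6 measured oviduct genes, the 5 of multiciliated cells were higher, Ccdc153 by 5.32 (adjusted p = 4e-06), and Ovgp1, a product of the secretory oviduct epithelium, fell by 0.73 (adjusted p = 0.00888). The sums over all 6 were 1346 to 1476 and 5643 to 8937. Squamous markers of vagina and cervix showed 0 of 7 calls (0 at an unadjusted p under 0.05; sums 1081 to 1178 and 962.9 to 1312). Ovary markers showed 1 call, Inha (0.78, adjusted p = 0.000505), with sums of 793.1 to 862.4 and 804.8 to 899.6 and the egg genes Zp3, Bmp15 and Oosp1 under the background signal. The part of these cell types in the Hox differences was not tested.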

How the data were processed

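Total RNA of 6 pools (3 control, 3 SF1) was measured on 1-colour arrays. The authors deposited intensities per probe set on a linear scale, between 1 and 25325, per the series value table; background correction, normalization and summarization are not given in the sources used here, and they affect dim probe sets most. Of 45101 probe sets, 64 control probe sets were set aside. A platform annotation table gave 34945 probe sets 1 symbol, 932 several and 9160 none. On log2(intensity + 16), limma 3.58.1 (lmFit, eBayes; R 4.3.3) compared SF1 with control, with p-values adjusted by Benjamini-Hochberg over 45037 probe sets and called under 0.05. The fit was tested on simulated data. Figures used matplotlib 3.10.9 and tables pandas 2.3.3 in Python 3.11.15. Precision is limited by the number of arrays. The labels give separate pools, but not whether they were processed together. The p-values rest on the spread between these pools, which eBayes draws towards a value common to all probe sets. They do not measure the spread between single mice.

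Members, the 6 accompanying gene lists and the 8 marker lists were chosen with earlier results of these data known. Values per array are given for called Hox genes and for Hoxa9 to Hoxa11, Hoxa13, Hoxd10 and Hoxd11; from each list, up to 3 called genes per direction with the largest differences were to be named. Hoxb, Hoxc and other list genes with values were added after their values were seen. The alternatives comprised median centring, quantile normalization, brighter probe sets alone, a replicate block, pseudocounts of 1 and 64, trend and robust eBayes, averaged probe sets per gene, an adjusted p under 0.01, other background rules and leaving out each array.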

Additional observations from a re-analysis of the deposited data

How the results depend on the processing

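Hoxa9, Hoxa10, Hoxa11, Hoxd9 and Hoxd10 were called lower in all 14 alternative fits and Hoxd11 in all 13 that kept it; the counts of Hox genes called lower were 7 to 8 with 1 array left out. The count called higher was 0, also with each array left out, except for 2 with brighter probe sets alone (Hoxb2 and Hoxb6) and 1 with the replicate number as a block (Hoxb6). The median log2 difference over Hox genes (-0.16) was -0.11 after quantile normalization, -0.11 after median centring, -0.20 over the 18 brighter members, and -0.21 to -0.10 with 1 array left out. The count of all genes called (3013) was 1571 at an adjusted p under 0.01 and 1946 to 2376 with 1 array left out, the lowest without SF1 replicate 1. Among the genes chosen by the naming rule, signs turned for Hoxa13 without SF1 replicate 2 (-0.087, limma adjusted p = 0.639; up to 0.16 with another array left out) and for Ccnd3 as the mean of its probe sets (-0.0002, adjusted p = 0.999); the cause was not tested. The signs of Hoxa7, Hoxb4, Hoxc5, Hoxc8, Hoxc13, Hoxd1, Hoxd3 and Hoxd12, uncalled in every fit, also turned under 1 or more alternatives. Hoxd8 was called in 4 alternatives, and Hoxb1 and Hoxb13 with a pseudocount of 1. Of 640 values under the alternatives for the 46 genes chosen by that rule, 601 kept direction and side of the threshold, 37 lost a call (9 genes) and 2 changed sign. With the replicate block 7 Hox genes were lower and 2083 genes were called. The deviations of same-numbered arrays from their group means had correlations of -0.06, -0.10 and -0.18, and the numbers were not taken as pairs. Signal over background limits 17 of the 33 genes.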
